A study of Homo sapiens with 11 samples.

Results

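The genes described here are those encoded by the mitochondrial genome, taken as every row of the deposited expression table whose Ensembl identifier maps to a symbol that starts with MT-, together with MTATP8P1, a nuclear pseudogene of MT-ATP8. Of 37 such genes, 17 had a row in the table of 40460 genes: all 13 mRNAs, both rRNAs (MT-RNR1 and MT-RNR2) and 2 of 22 tRNAs (MT-TF and MT-TP). The other 20 tRNAs were not analysed here. With MTATP8P1 this gave 18 genes, and all 18 passed the filter on low values, which kept the 17945 genes that reached 10 (3.32 in log2) in 2 or more libraries.

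RNA came from hTert-HME1, a line of breast epithelial cells that telomerase keeps dividing, at passage 6. The 4 groups were cells given a control siRNA (control-2) with epidermal growth factor (EGF) in the medium (3 libraries), an siRNA labelled as directed at BRCA2 (BRCA2-1) with EGF (3 libraries), the control siRNA without EGF (2 libraries, replicates A and C) and the BRCA2 siRNA without EGF (3 libraries). All cells were transfected with RNAiMAX and grown in the Lonza mammary epithelial medium. Each target had a single siRNA, so its effects on BRCA2 and on unrelated transcripts cannot be told apart, and the labels give no duration of growth without EGF.

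Human mitochondrial DNA is a small circle read from both strands as long precursor RNAs, from which mRNAs, rRNAs and tRNAs are cut. The nuclear RNA polymerase POLRMT transcribes it with the factors TFAM and TFB2M. The 13 mRNAs encode core subunits of the respiratory chain and ATP synthase, and the rRNAs and tRNAs serve the mitochondrial ribosome that translates them. All other subunits of these complexes are nuclear genes. Because the mitochondrial RNAs are cut from shared precursors, the members are not independent of each other, and a count over them is not a count of separate events. In RNA from whole cultures, fewer mitochondrial genomes, fewer cells of a type and less RNA per cell cannot be told apart.

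The copies of mitochondrial genes in nuclear DNA matter for these values because short reads can match both. MTATP8P1 is the clearest case, and its sequence is shown beside that of MT-ATP8 so that the few bases by which reads can be assigned are visible. In the GENCODE 29 transcripts (GRCh38), 202 of 207 aligned bases were identical (97.6%), the longest identical stretch was 62 bases, and the differences, counted from 1 at the 5′ end with the MT-ATP8 base first, were G27A, C90T, C96T, T138C and G180A. The differing bases are in capitals.
MT-ATP8: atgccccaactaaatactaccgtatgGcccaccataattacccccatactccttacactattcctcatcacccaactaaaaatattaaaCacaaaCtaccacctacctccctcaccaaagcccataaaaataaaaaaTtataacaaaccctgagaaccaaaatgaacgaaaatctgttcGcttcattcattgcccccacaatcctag
MTATP8P1: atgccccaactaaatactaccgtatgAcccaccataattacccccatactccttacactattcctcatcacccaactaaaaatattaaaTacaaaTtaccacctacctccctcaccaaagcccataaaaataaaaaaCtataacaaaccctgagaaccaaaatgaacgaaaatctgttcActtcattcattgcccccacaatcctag
A read that covers none of these bases fits both genes.

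Mitochondrial mRNAs can also overlap each other. The end of MT-ATP8 shares 46 bases with the start of MT-ATP6, and the end of MT-ND4L shares 7 with the start of MT-ND4. The sequences below show the shared bases in capitals, since the authors' counting could split or drop reads there and the values of these pairs are therefore uncertain.
MT-ATP8 end: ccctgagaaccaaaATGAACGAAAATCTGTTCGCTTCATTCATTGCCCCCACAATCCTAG
MT-ATP6 start: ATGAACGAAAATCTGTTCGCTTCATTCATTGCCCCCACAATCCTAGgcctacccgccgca
MT-ND4L end: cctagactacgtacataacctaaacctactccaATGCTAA
MT-ND4 start: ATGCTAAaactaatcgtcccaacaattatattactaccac
Both tRNAs with a row are short, and their sequences are given in full, without capitals, to show how little a read can cover.
MT-TF: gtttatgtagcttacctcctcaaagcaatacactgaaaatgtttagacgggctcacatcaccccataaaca
MT-TP: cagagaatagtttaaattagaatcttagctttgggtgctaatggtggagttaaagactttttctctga
MT-TF, the tRNA for phenylalanine, has 71 bases and MT-TP, the tRNA for proline, has 68.

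The deposited values are normalized log2 expression, without counts, and depth is therefore unknown. The mean of the 4 replicate A libraries equalled the mean of the 7 replicate B and C libraries in each of 40460 genes, so the values had been centred between A and the rest, which moved the A values by a part of the differences between groups. As a check of the labels, BRCA2 mRNA did not fall under the siRNA named for it. With EGF its log2 values were 12.45, 12.13 and 12.48 with control siRNA and 12.43, 12.37 and 12.40 with the BRCA2 label (difference 0.05 ± 0.12, SE; adjusted p = 0.999). Without EGF they were 11.44 and 11.65 against 12.48, 12.27 and 12.11, which was 0.74 higher with the BRCA2 label (adjusted p = 0.00397). Every direction given below for that siRNA therefore refers to the labels. Markers of basal mammary epithelium were high (KRT5 between 17.2 and 18.8, KRT14 between 16.3 and 17.8). Of the endothelial genes, CDH5 stayed at or below -0.01, VWF lay between 2.74 and 3.70 and KDR between 7.31 and 10.40. Of the leukocyte genes, CD3E stayed at or below -1.01, PTPRC lay between 2.33 and 3.10 and CD14 between 3.00 and 5.61.

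The levels of the mRNAs differed widely among themselves. On a scale of log2 value per kilobase, averaged over the 3 control libraries with EGF, MT-CO1 was highest at 15.91, followed by MT-CO2 at 14.73 and MT-CO3 at 14.72, the 3 mitochondrial subunits of cytochrome c oxidase (complex IV). The complex I mRNAs ranged from 11.48 (MT-ND4L) to 13.78 (MT-ND3), MT-CYB of complex III was at 13.33, and MT-ATP6 and MT-ATP8 of ATP synthase were at 12.52 and 11.55. On the same scale the rRNAs MT-RNR1 and MT-RNR2 were at 10.62 and 11.58, lower than every mRNA except MT-ND4L and MT-ATP8 for MT-RNR2 and lower than all of them for MT-RNR1. The libraries had been depleted of rRNA before sequencing, so these 2 values are what was left after depletion. MT-TP was at 12.73 and MT-TF at 7.77 on this scale, in which a length of about 70 bases weighs heavily. MT-CO1 alone made up 43.1% to 48.9% of the summed linear values of the 17 genes in each library.

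**Figure D1:**
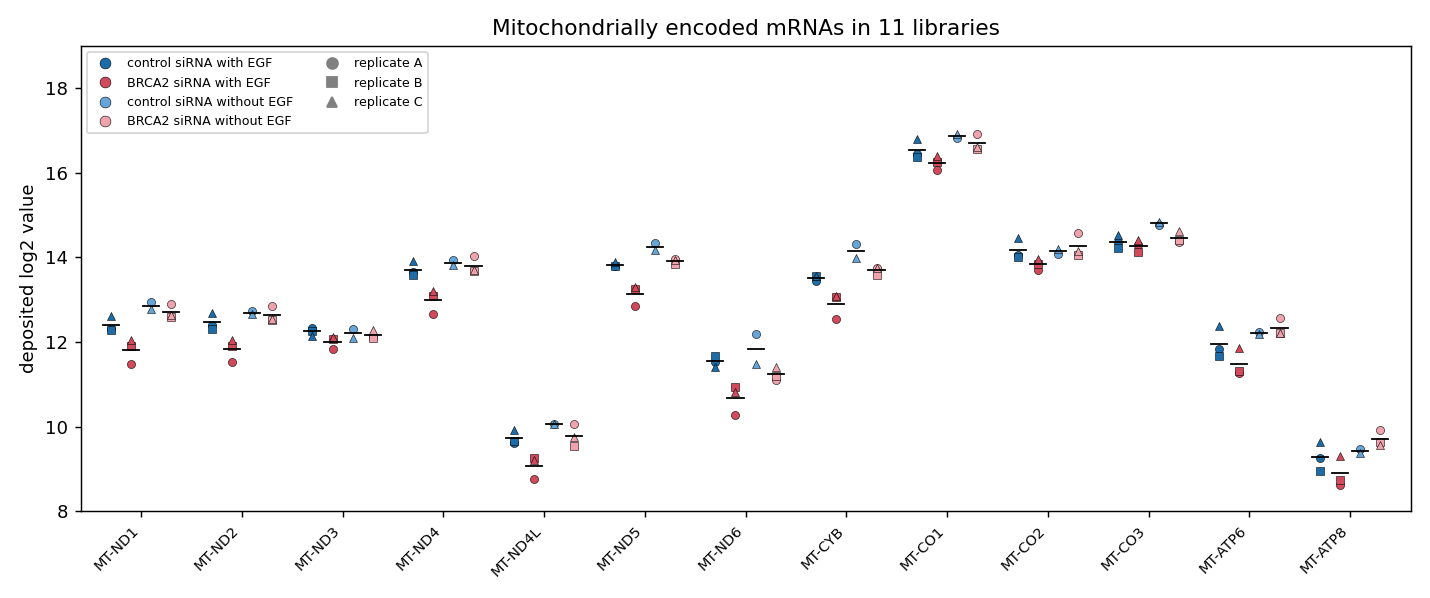
Deposited log2 values (vertical axis, not scaled for length) of the 13 mitochondrial mRNAs in the 11 libraries. Colours are the 4 groups, symbols the replicate letters and bars the group means. MT-CO1 lies between 16.07 and 16.92, and the BRCA2 siRNA libraries with EGF lie lowest for most mRNAs, with replicate A at the bottom of that group for MT-ND1, MT-ND2 and MT-ND4.

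The first comparison asked what removing EGF did in cells with the control siRNA. Of the 17 genes, 6 were higher without EGF and 0 lower at an adjusted p of at most 0.05, beside 50.8% of all 17945 genes called in either direction and 24.7% called higher. The 6 were MT-ND1, MT-ND5, MT-CYB, MT-CO3, MT-RNR2 and MT-TP. This count is near the background and is no result about the members as a set. Over the 13 mRNAs the median log2 difference was 0.30 (1.23-fold), from -0.05 (MT-ND3) to 0.64 (MT-CYB), beside a median of -0.0036 over all genes.

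MT-CYB, the mitochondrial subunit of complex III, read 13.44, 13.56 and 13.56 with EGF and 14.33 and 13.99 without. The groups did not overlap, and the difference was 0.64 ± 0.16 (SE; limma, adjusted p = 0.00562). MT-ND5, a proton-pumping subunit of complex I, read 13.81, 13.79 and 13.88 with EGF against 14.33 and 14.17 without (0.42 ± 0.12, adjusted p = 0.015). The complex IV mRNA MT-CO3 read 14.35, 14.22 and 14.52 against 14.77 and 14.85 (0.45 ± 0.12, adjusted p = 0.00808). In these 3 genes each library without EGF lay above each with it. MT-ND1 had values of 12.31, 12.29 and 12.61 against 12.94 and 12.77 (0.45 ± 0.17, adjusted p = 0.0446). Its call was lost with a term for replicate A (adjusted p = 0.0552) and with a replicate block (adjusted p = 0.0574). The call was also lost without the filter, centred on the median nuclear gene and without the trend (adjusted p = 0.0612, 0.055 and 0.0644). Without replicate A or B of the control siRNA with EGF it did not pass either (adjusted p = 0.119 and 0.108). The same held without replicate B or C of the BRCA2 siRNA without EGF (adjusted p = 0.0555 and 0.0588). MT-CO2, a copper-binding subunit of complex IV, did not pass, with 14.07, 14.02 and 14.46 against 14.07 and 14.21 (-0.04 ± 0.17, adjusted p = 0.846). Groups did not overlap for 6 of 13 mRNAs, all higher without EGF, beside 32.9% of all genes. In replicate A 12 of 13 mRNAs were higher without EGF and in replicate C 7 of 13.

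MT-RNR2, the large rRNA of the mitochondrial ribosome, differed most among the 17 genes. Its values were 12.39, 12.13 and 12.15 with EGF and 13.97 and 14.19 without, a difference of 1.86 ± 0.34 (3.62-fold; adjusted p = 0.000986). MT-RNR1, the small rRNA, read 10.85, 10.46 and 10.35 against 11.33 and 11.38. Its groups did not overlap either, but at 0.80 ± 0.49 it missed the threshold (adjusted p = 0.188), a point taken up with the library that set its spread. The difference between the rRNAs within a library, MT-RNR2 minus MT-RNR1, was 1.55 to 1.81 with EGF and 2.64 to 2.81 without. Both rRNAs are targets of the depletion step, whose yield in each library is not recorded in the sources used here, and its part in this result was not tested.

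MT-TP read 8.93, 8.95 and 8.68 with EGF and 9.57 and 9.36 without (0.61 ± 0.15, adjusted p = 0.00615). MT-TP lies on the strand opposite to most of these genes, as do MT-ND6 and 0 of the other 12 mRNAs. MT-ND6 read 11.53, 11.67 and 11.42 against 12.20 and 11.49, and its groups overlapped (0.30 ± 0.22, adjusted p = 0.271). MT-TF stood at 3.86, 4.29 and 3.72 against 4.05 and 3.77, close to the filter of 3.32 (-0.05 ± 0.20, adjusted p = 0.863).

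Leaving out replicate A or C of the control siRNA without EGF leaves 1 library in that group. Without replicate A the calls of MT-ND1 (0.37), MT-ND5 (0.34), MT-CYB (0.47) and MT-TP (0.50) were lost. Without replicate C those of MT-ND1 (0.53) and MT-CO3 (0.41) were lost. Of the 6 genes, only MT-RNR2 kept its call in both fits. With replicates B and C alone, 0 of 17 passed, where 2074 of 17945 genes did.

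**Figure D2:**
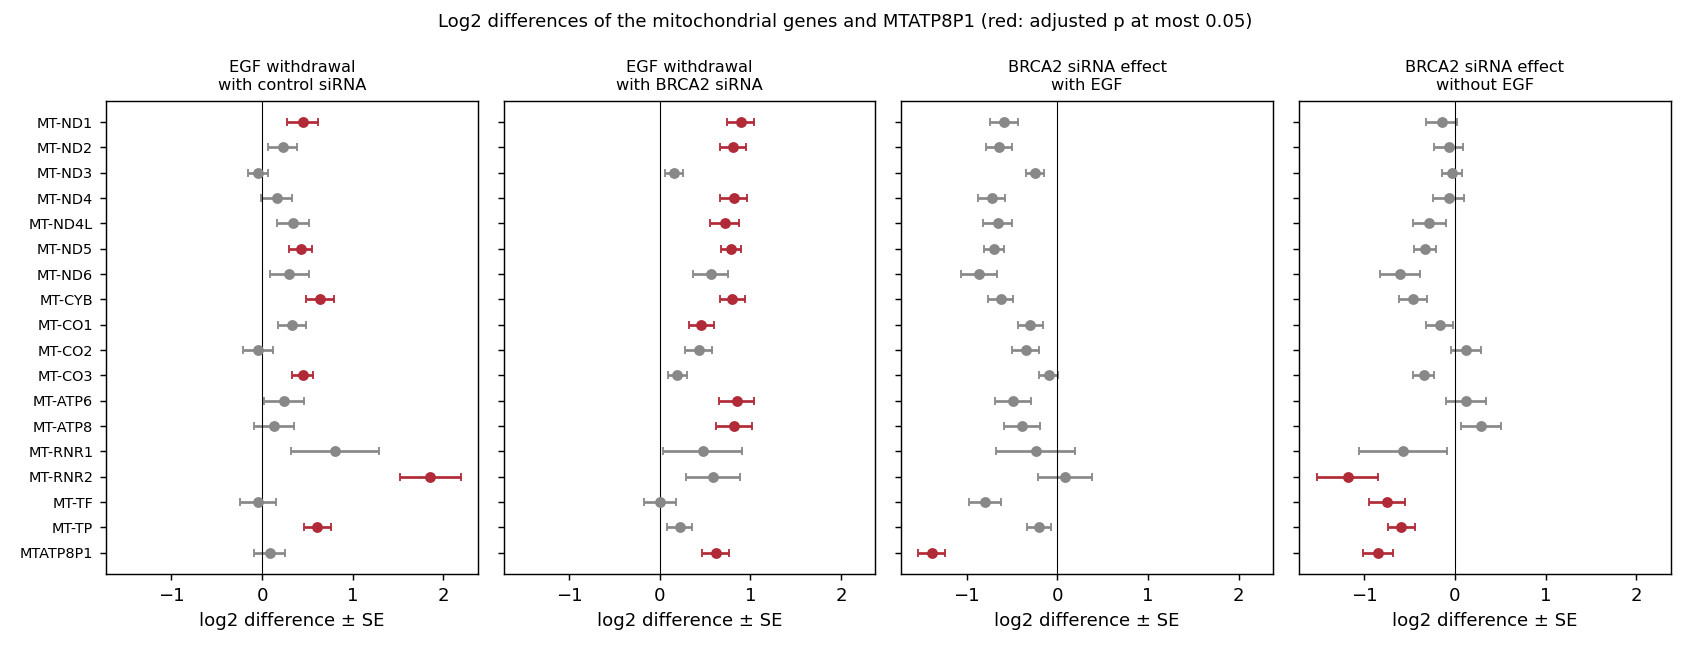
Log2 difference (horizontal axis) with its moderated standard error for the 17 mitochondrial genes and MTATP8P1 in 4 comparisons; positive values are higher without EGF (2 panels on the left) or higher with the BRCA2 siRNA (2 panels on the right). Red points passed an adjusted p of at most 0.05; MT-RNR2 at 1.86 in the leftmost panel and MTATP8P1 at -1.39 in the third panel are the extremes.

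In cells with the BRCA2 siRNA, removing EGF was followed by higher levels of 9 of 17 genes, all mRNAs, and lower levels of 0, beside 27.1% of all genes called in either direction and 13.4% called higher. The 9 were MT-ND1, MT-ND2, MT-ND4, MT-ND4L and MT-ND5 of complex I, MT-CYB of complex III, MT-CO1 of complex IV, and MT-ATP6 and MT-ATP8 of ATP synthase. The median over the 13 mRNAs was 0.79 (1.73-fold), from 0.16 (MT-ND3) to 0.89 (MT-ND1), beside a median of 0.0032 over all genes. Each of the 13 mRNAs was higher without EGF in replicates A, B and C, with medians of 1.21, 0.52 and 0.49, so replicate A showed the largest difference. Groups did not overlap for 11 of 13 mRNAs, all higher, beside 22.2% of all genes.

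MT-ND1 read 11.47, 11.91 and 12.06 with EGF and 12.91, 12.58 and 12.63 without (0.89 ± 0.15, adjusted p = 0.00274). MT-ND5 read 12.84, 13.24 and 13.30 against 13.97, 13.84 and 13.95 (0.79 ± 0.11, adjusted p = 0.00123). MT-ND4, another proton-pumping subunit of complex I, read 12.66, 13.09 and 13.21 against 14.04, 13.68 and 13.70 (0.82 ± 0.15, adjusted p = 0.00387). In all 3 the libraries with EGF lay below every library without it, with replicate A lowest with EGF and highest without.

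MT-CYB read 12.54, 13.07 and 13.08 with EGF against 13.75, 13.59 and 13.76 (0.80 ± 0.14, adjusted p = 0.00297). MT-CO1, the catalytic subunit of complex IV, read 16.07, 16.25 and 16.40 against 16.91, 16.57 and 16.61 (0.46 ± 0.14, adjusted p = 0.0293). MT-ATP6, the proton channel subunit of ATP synthase, read 11.26, 11.32 and 11.85 against 12.56, 12.20 and 12.21 (0.85 ± 0.20, adjusted p = 0.0103). The groups of these genes did not overlap. MT-ATP8 overlaps MT-ATP6 and read 8.63, 8.75 and 9.30 against 9.92, 9.63 and 9.58 (0.82 ± 0.20, adjusted p = 0.0128). Without replicate A of the BRCA2 siRNA with EGF the calls of MT-CO1, MT-ATP6 and MT-ATP8 were lost (adjusted p = 0.119, 0.0523 and 0.0617). MT-CO1 also lost its call without replicate B of that group (adjusted p = 0.053) and without replicate A or C of the BRCA2 siRNA without EGF (adjusted p = 0.102 and 0.0582).

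The mRNAs that did not pass were MT-ND3, MT-ND6, MT-CO2 and MT-CO3. MT-ND6 read 10.27, 10.94 and 10.81 against 11.11, 11.19 and 11.41 (0.56 ± 0.20, adjusted p = 0.0535) and MT-CO2 13.69, 13.83 and 13.97 against 14.57, 14.06 and 14.15 (0.43 ± 0.15, adjusted p = 0.0527), both just above the threshold and without overlap. MT-ND3 read 11.84, 12.07 and 12.11 against 12.12, 12.09 and 12.29 (0.16 ± 0.10, adjusted p = 0.245), and MT-CO3 read 14.29, 14.12 and 14.40 against 14.37, 14.40 and 14.62 (0.19 ± 0.10, adjusted p = 0.183), with overlap in both. Neither tRNA passed: MT-TP read 8.39, 8.80 and 8.76 against 8.76, 8.82 and 9.03, and MT-TF 3.09, 3.31 and 3.08 against 3.05, 3.31 and 3.12.

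With replicates B and C alone the median over the mRNAs was 0.54 and 0 of 17 passed, where 47 of 17945 genes did.

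The rRNAs of this group rest on a library that stood apart. In replicate B of the BRCA2 siRNA with EGF, MT-RNR1 was 11.71, where replicates A and C had 9.72 and 9.51, and MT-RNR2 was 13.24, where they had 11.86 and 11.83. That put it 0.86 and 0.85 above the next highest library with EGF, and by this gap the 2 rRNAs ranked 3 and 5 of 17945 genes. Rank 1 was ENSG00000226958, which has no symbol in the tables used, at 10.86 in that library and between 7.38 and 8.85 in the other 10. It was named after its values were seen. The mRNAs of the same library showed no such rise: MT-ND1 was 11.91 there, between the 11.47 and 12.06 of replicates A and C.

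Without EGF the BRCA2 siRNA libraries had 10.89, 10.63 and 10.83 for MT-RNR1 and 12.85, 12.69 and 13.15 for MT-RNR2. Over all libraries the withdrawal differences were 0.47 ± 0.44 (adjusted p = 0.435) and 0.59 ± 0.30 (adjusted p = 0.162). Without that single library, singled out after its high rRNA values were seen, they were 1.17 (adjusted p = 0.00123) and 1.05 (adjusted p = 0.00135). In the same fit MT-RNR1 with control siRNA, unchanged in size at 0.80, had an adjusted p of 0.000916. Leaving out the library with the highest rRNA values of its group raises these differences or narrows their spread by construction. The small p-values of this fit are therefore no test of the rRNAs.

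**Figure D3:**
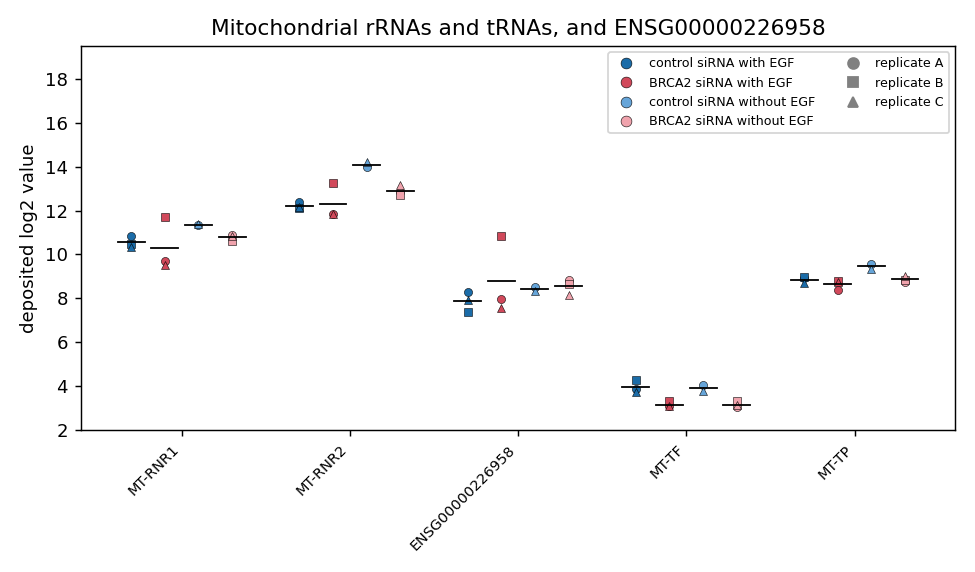
Deposited log2 values of the 2 mitochondrial rRNAs, the gene ENSG00000226958 and the 2 tRNAs in the 11 libraries, with groups as colours, replicate letters as symbols and group means as bars. Replicate B of the BRCA2 siRNA with EGF (red square) stands above its group at 11.71, 13.24 and 10.86, while MT-TF and MT-TP do not single it out.

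The BRCA2 siRNA was next compared with the control siRNA in cells grown with EGF. No mitochondrial gene passed: 0 of 17 were called by limma at an adjusted p of at most 0.05, beside 0.00557% of all genes, that is 1 gene of 17945. At an unadjusted p below 0.05 there were 11 of 17, all lower, beside 508 genes (2.83%) over the whole table. Of the 11, 10 were mRNAs. The 13 mRNAs were all lower with the BRCA2 siRNA in replicates A, B and C, with medians of -0.84, -0.37 and -0.53. The median of their fitted differences was -0.59 (1.51-fold lower), from -0.87 (MT-ND6) to -0.09 (MT-CO3), beside 0.0012 over all genes. Groups did not overlap for 9 of 13 mRNAs, all lower, beside 3.38% of all genes.

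MT-ND5 had the smallest adjusted p of the 17, with 13.81, 13.79 and 13.88 for the control siRNA and 12.84, 13.24 and 13.30 for the BRCA2 siRNA (-0.70 ± 0.11, unadjusted p = 5.62e-05, adjusted p = 0.336). MT-ND6, the complex I subunit from the opposite strand, read 11.53, 11.67 and 11.42 against 10.27, 10.94 and 10.81 (-0.87 ± 0.20, adjusted p = 0.829). MT-ND4 read 13.64, 13.57 and 13.92 against 12.66, 13.09 and 13.21 (-0.73 ± 0.15, adjusted p = 0.775). These are non-overlapping groups of 3 libraries each that did not pass the correction over 17945 genes. MT-CO3, at -0.09 ± 0.10, and MT-CO1, at -0.30 ± 0.14, overlapped between the siRNAs (both adjusted p = 0.999).

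MT-TF read 3.86, 4.29 and 3.72 with control siRNA and 3.09, 3.31 and 3.08 with BRCA2 siRNA (-0.80 ± 0.18, adjusted p = 0.802). The BRCA2 siRNA values lie below the filter of 3.32, so MT-TF passed it only through the control libraries, and the reads behind these values are unknown. MT-TP differed by -0.20 ± 0.13 (adjusted p = 0.999). The rRNAs differed by -0.24 ± 0.44 (MT-RNR1) and 0.09 ± 0.30 (MT-RNR2), with the library that stood apart included (both adjusted p = 0.999).

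The single gene called over the whole table was MTATP8P1. It read 5.01, 5.26 and 5.14 with control siRNA and 3.73, 3.98 and 3.53 with BRCA2 siRNA, which is -1.39 ± 0.15 (2.61-fold lower; adjusted p = 0.0252), and it was lower by 1.28 or more in replicates A, B and C. Its groups did not overlap. The call was lost with a term for replicate A (adjusted p = 0.0919), with only these 2 groups in the fit (adjusted p = 0.79) and in 10 of the 11 fits that each left out 1 library, where the adjusted p was 0.0719 to 0.267. It passed without replicate B of the BRCA2 siRNA with EGF.

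Without EGF, the BRCA2 siRNA libraries were lower than the controls in 3 of 17 genes (MT-RNR2, MT-TF and MT-TP) and higher in 0, beside 20.5% of all genes called in either direction and 9.36% called lower. This count too is near the background, and it includes MT-TF, which passed the filter only through the control libraries. By limma 0 of the 13 mRNAs passed, and 4 of them had an unadjusted p below 0.05, beside 35.3% of all genes. Groups did not overlap for 8 of 17 genes that were lower, beside 29.0% of all genes, and 1 that was higher, beside 33.2%. The median over the 17 genes was -0.28, from -1.18 (MT-RNR2) to 0.29 (MT-ATP8), and over the 13 mRNAs it was -0.15, beside 0.0062 over all genes. This comparison has 2 control libraries.

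MT-RNR2 read 13.97 and 14.19 with control siRNA and 12.85, 12.69 and 13.15 with BRCA2 siRNA (-1.18 ± 0.34, 2.27-fold lower, adjusted p = 0.0302). MT-TP read 9.57 and 9.36 against 8.76, 8.82 and 9.03 (-0.59 ± 0.15, adjusted p = 0.0189). MT-TF read 4.05 and 3.77 against 3.05, 3.31 and 3.12 (-0.75 ± 0.20, adjusted p = 0.0212), again next to the filter. In each the groups did not overlap. The mRNAs nearest to the threshold were MT-CO3 at -0.35 ± 0.12 (adjusted p = 0.0563), MT-CYB at -0.46 ± 0.16 (adjusted p = 0.0577), MT-ND6 at -0.61 ± 0.22 (adjusted p = 0.0712) and MT-ND5 at -0.33 ± 0.12 (adjusted p = 0.0805). MT-ATP8 lay on the other side at 0.29 ± 0.22, without overlap (adjusted p = 0.377).

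The calls changed with single libraries, as did those over all 17945 genes, which numbered 3687 with all libraries. Without replicate A of the control siRNA without EGF 0 of 17 passed (624 of all genes), and without replicate A of the BRCA2 siRNA without EGF 0 passed (1662 of all genes). Without replicate C of the former 1 passed, MT-ND6 (1182 of all genes), and without replicate B of the latter 1, MT-TF (2048 of all genes). Without replicate A or replicate B of the BRCA2 siRNA with EGF 6 passed (3219 and 4278 of all genes).

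Whether the effect of EGF withdrawal differed between the siRNAs was tested as an interaction, that is, the withdrawal difference in BRCA2 siRNA cells less the one in control cells. By limma 0 of 17 genes passed, beside 3.32% of all genes, and 4 had an unadjusted p below 0.05, beside 22.2%. MT-ND4 had the smallest adjusted p at 0.66 ± 0.23 (adjusted p = 0.123), and MT-RNR2 stood at -1.27 ± 0.45 (adjusted p = 0.134). The median over the mRNAs was 0.37. The larger number of mRNAs called with the BRCA2 siRNA than with the control siRNA is therefore not shown to be a difference between them. The withdrawal comparison with the BRCA2 siRNA and the siRNA comparison with EGF share the same 3 BRCA2 siRNA libraries with EGF, in which the mRNAs were lowest, so their values are not independent of each other.

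MTATP8P1 was lower with the BRCA2 siRNA in both media. Without EGF it read 5.14 and 5.29 with control siRNA and 4.36, 4.45 and 4.29 with BRCA2 siRNA (-0.85 ± 0.17, adjusted p = 0.00686). This call was lost without replicate A or C of the control siRNA without EGF (adjusted p = 0.0504 and 0.0611) and with replicates B and C alone (adjusted p = 0.346). The log2 value of MTATP8P1 minus that of MT-ATP8 in the same library lay between -4.51 and -3.69 in the 5 control libraries and between -5.76 and -4.77 in the 6 BRCA2 siRNA libraries, which did not overlap. MT-ATP8 itself overlapped between the siRNAs with EGF, at 9.25, 8.95 and 9.65 against 8.63, 8.75 and 9.30 (-0.39 ± 0.20, adjusted p = 0.999). On EGF withdrawal MTATP8P1 rose with the BRCA2 siRNA (0.62 ± 0.15, adjusted p = 0.013), as MT-ATP8 did, and differed by 0.08 ± 0.17 with the control siRNA (adjusted p = 0.706). That rise lost its call after quantile normalization (0.41, adjusted p = 0.0795), without replicate A of the BRCA2 siRNA with EGF (adjusted p = 0.0506) and with replicates B and C alone (adjusted p = 0.211).

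The table holds 240 other nuclear copies of mitochondrial genes, of which 12 passed the filter. Compared with their mitochondrial parents, 8 transcripts including MTATP8P1 were 95.7% to 98.7% identical, and the other 5 were 65.6% to 77.6% identical. MTATP6P1, at 98.5% identity to MT-ATP6, read 6.63, 6.84 and 7.16 with EGF and 7.84, 7.53 and 7.51 without in BRCA2 siRNA cells (0.75 ± 0.17, adjusted p = 0.0103), beside 0.85 for MT-ATP6. MTND2P28, at 98.4% identity, differed by 0.76 ± 0.15 (adjusted p = 0.00558) beside 0.81 for MT-ND2, and MTND1P23, at 98.1%, by 0.75 ± 0.21 (adjusted p = 0.0233) beside 0.89 for MT-ND1. MTCO1P12, at 98.7%, differed by 0.42 ± 0.12 (adjusted p = 0.0258) beside 0.46 for MT-CO1. These 4 and MTCO1P15 (0.95 ± 0.23, adjusted p = 0.013, 77.6% identity) were the 5 of 12 copies that passed there, beside 13.4% of all genes called higher. With control siRNA 2 of 12 were higher without EGF, beside 24.7% of all genes. They were MTCO1P15 at 1.07 and MTCO3P12 at 0.44, the latter beside 0.45 for MT-CO3. In both siRNA comparisons 0 of 12 passed by limma, beside 0.00557% of all genes called with EGF and 20.5% without. At an unadjusted p below 0.05 there were 5 with EGF, beside 2.83% of all genes, and 1 without, beside 35.3%. With EGF, MTND2P28 stood at -0.62 and MTATP6P1 at -0.56 with the BRCA2 siRNA (both adjusted p = 0.999), so of the nuclear copies tested MTATP8P1 alone was called there. How reads were divided between parents and copies was not tested.

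**Figure D4:**
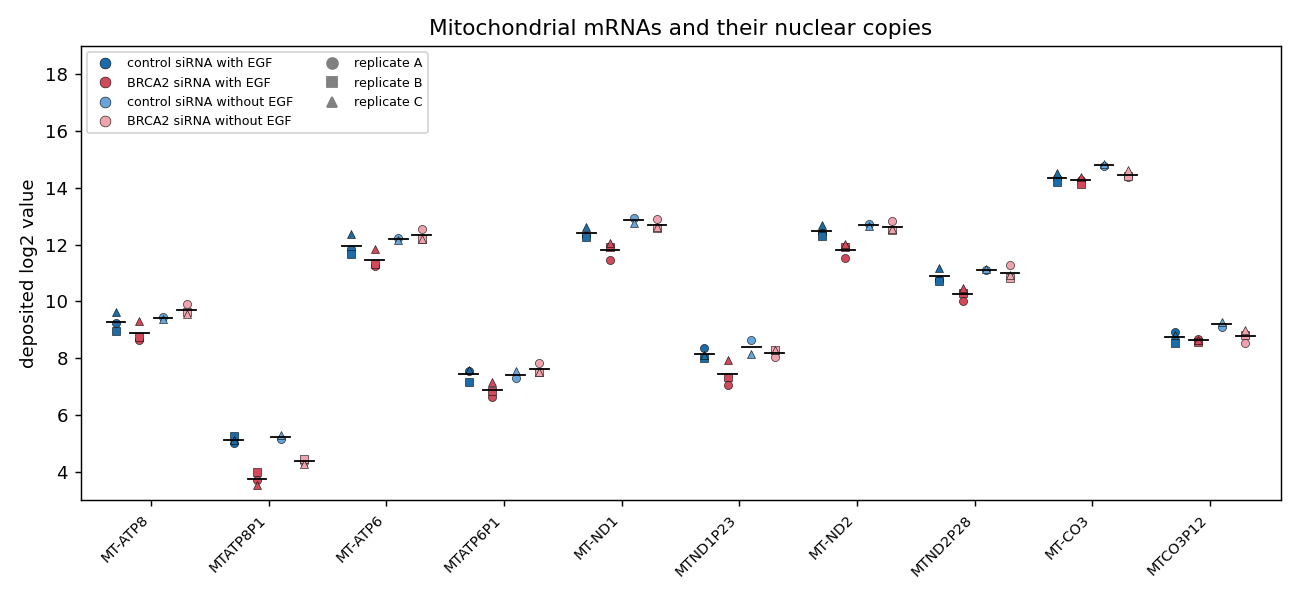
Deposited log2 values of 5 mitochondrial mRNAs, each followed by a nuclear copy of it, in the 11 libraries, with groups as colours, replicate letters as symbols and group means as bars. MTATP8P1 separates the siRNAs in both media, from 5.01 to 5.29 with control siRNA and from 3.53 to 4.45 with BRCA2 siRNA, whereas the other 4 copies overlap between the siRNAs in at least 1 medium.

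The nuclear genes that serve mitochondrial gene expression were described from lists written for this purpose. In control siRNA cells without EGF, 0 of 11 genes for transcription of mitochondrial DNA were higher and 6 lower, where 26.1% of all genes were called lower. The polymerase POLRMT was at -0.45 ± 0.10 (adjusted p = 0.00329), TFAM, which packages and activates mitochondrial DNA, at -0.44 ± 0.12 (adjusted p = 0.0103), and TFB2M, which opens the promoter, at -0.47 ± 0.10 (adjusted p = 0.00249). The elongation factor TEFM did not pass (-0.19 ± 0.14, adjusted p = 0.299). Of 32 genes for processing and stability of mitochondrial RNA, 18 were lower and 0 higher (11 lower without replicate A of the control siRNA without EGF). Among them were SLIRP at -0.85 ± 0.12 (adjusted p = 0.000192) and its partner LRPPRC at -0.21 ± 0.07 (adjusted p = 0.0371), which together protect mitochondrial mRNAs. LRPPRC reversed to 0.095 after quantile normalization (adjusted p = 0.363).

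Of 76 mitochondrial ribosomal protein genes, 65 were lower and 0 higher, with a median of -0.61. MRPL17 stood at -1.12 (adjusted p = 2.04e-05) and MRPL3 at -0.97 (adjusted p = 1.98e-05), while the rRNA MT-RNR2 of the same large subunit was 1.86 higher. Among 15 regulators of mitochondrial biogenesis 2 were higher and 3 lower, where 24.7% of all genes were called higher and 26.1% lower. Neither count stands above the background. PPARGC1A, the coactivator PGC-1alpha, was 3.30 higher (adjusted p = 1.96e-05) and PPARGC1B 1.20 higher (adjusted p = 0.0107). Of 14 chaperones and proteases 11 were lower, HSPD1 at -1.01 among them (adjusted p = 2.67e-05).

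In BRCA2 siRNA cells without EGF, 2 of 11 transcription genes, 8 of 32 processing genes and 53 of 76 ribosomal protein genes were lower and 0 higher, where 13.8% of all genes were called lower. The ribosomal protein count was 30 without replicate A of the BRCA2 siRNA with EGF and 33 without replicate C of the group without EGF, and over the 11 fits that each left out 1 library the processing count was 5 to 12 and the transcription count 1 to 3. POLRMT (-0.08), TFAM (-0.25) and TFB2M (-0.14) did not pass (adjusted p = 0.499, 0.11 and 0.264), SLIRP fell by 0.56 (adjusted p = 0.00448), and PPARGC1A rose by 1.60 (adjusted p = 0.00264). With EGF, 0 of 278 genes on the lists of nuclear mitochondrial genes were called between the siRNAs by limma, beside 0.00557% of all genes. At an unadjusted p below 0.05 there were 6, beside 2.83% of all genes, so both counts are near the background. Without EGF the BRCA2 siRNA libraries had 31 of 76 ribosomal protein genes higher and 0 lower, where 11.2% of all genes were called higher. That count fell to 2 and 11 without replicates A and C of the control siRNA without EGF, and to 14 and 16 without replicates A and B of the BRCA2 siRNA without EGF. SLIRP was 0.42 higher there (adjusted p = 0.0302), and PPARGC1A was at -1.83 (adjusted p = 0.00328).

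The interaction called 5 of the 278 nuclear mitochondrial genes, beside 3.32% of all genes. MRPL3 (0.51, adjusted p = 0.0469) and MRPL17 (0.60, adjusted p = 0.0443) of the ribosomal protein list, MTERF3 of the transcription list (0.67, adjusted p = 0.0369) and LIG3 of the replication list (0.60, adjusted p = 0.0395) had a higher difference with the BRCA2 siRNA. PPARGC1A had a lower one (-1.71, adjusted p = 0.0468). LIG3 and MTERF3 were named after their values were seen. Leaving out 1 library at a time gave 0 to 11 of the 76 ribosomal protein genes, with 11 without replicate C of the control siRNA with EGF and 0 in 9 of the 11 fits.

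The mitochondrial and nuclear subunits of the same enzymes were then set side by side. Of 81 nuclear genes for subunits of complexes I to IV and ATP synthase, 47 were lower without EGF and 1 higher in control siRNA cells, with a median of -0.37, and 42 were lower and 0 higher in BRCA2 siRNA cells, with a median of -0.30, where 26.1% and 13.8% of all genes were called lower. The 13 mitochondrial mRNAs had medians of 0.30 and 0.79 in these comparisons. Complex I had 24 of 37 nuclear genes lower with control siRNA, NDUFS8 at -0.81 (adjusted p = 0.000289) and NDUFA6 at -0.70 (adjusted p = 0.000166) among them. Its mitochondrial mRNAs MT-ND1 and MT-ND5 were higher. In complex III, 5 of 9 nuclear genes were lower, with UQCRFS1, the iron-sulfur subunit, at -0.73 (adjusted p = 5.77e-05), and MT-CYB was 0.64 higher. Complex IV had 4 of 13 nuclear genes lower, a share near that of all genes, and ATP synthase 12 of 18. Complex II, which has no mitochondrially encoded subunit, had 2 of 4 lower, SDHB at -0.93 and SDHA at -0.55 (adjusted p = 2.89e-05 and 0.000664).

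Between the siRNAs with EGF, 0 of 81 nuclear subunits passed by limma, beside 0.00557% of all genes, and the median was 0.10. At an unadjusted p below 0.05 there were 5, beside 2.83% of all genes. Without EGF 9 were higher and 0 lower with the BRCA2 siRNA, with a median of 0.18. That count is at the background, since 11.2% of all genes were called higher, and it ran from 0, without replicate A of the control siRNA without EGF, to 15, without replicate C of the control siRNA with EGF. Leaving out 1 library at a time gave 27 to 54 lower nuclear subunits with control siRNA and 21 to 48 with BRCA2 siRNA. The lowest counts came without replicate A of the control siRNA without EGF and without replicate A of the BRCA2 siRNA with EGF. With BRCA2 siRNA the count was also 27 without replicate B and 26 without replicate C of the group without EGF. In replicates B and C alone 4 and 0 passed, with medians of -0.29 in both.

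By library, the median of the 13 mitochondrial mRNAs minus the median of the 81 nuclear subunits was 1.51, 1.57 and 1.79 with control siRNA and EGF and 0.69, 1.35 and 0.95 with BRCA2 siRNA and EGF. Without EGF it was 2.33 and 2.04 with control siRNA and 2.11, 1.78 and 1.85 with BRCA2 siRNA. The 3 BRCA2 siRNA libraries with EGF had the lowest differences, and the libraries without EGF lay above those with EGF and the same siRNA. These are medians over unscaled log2 values, so only their change between libraries can be read. In replicate B of the BRCA2 siRNA with EGF the nuclear median was 10.72, where replicates A and C had 11.15 and 11.16.

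**Figure D5:**
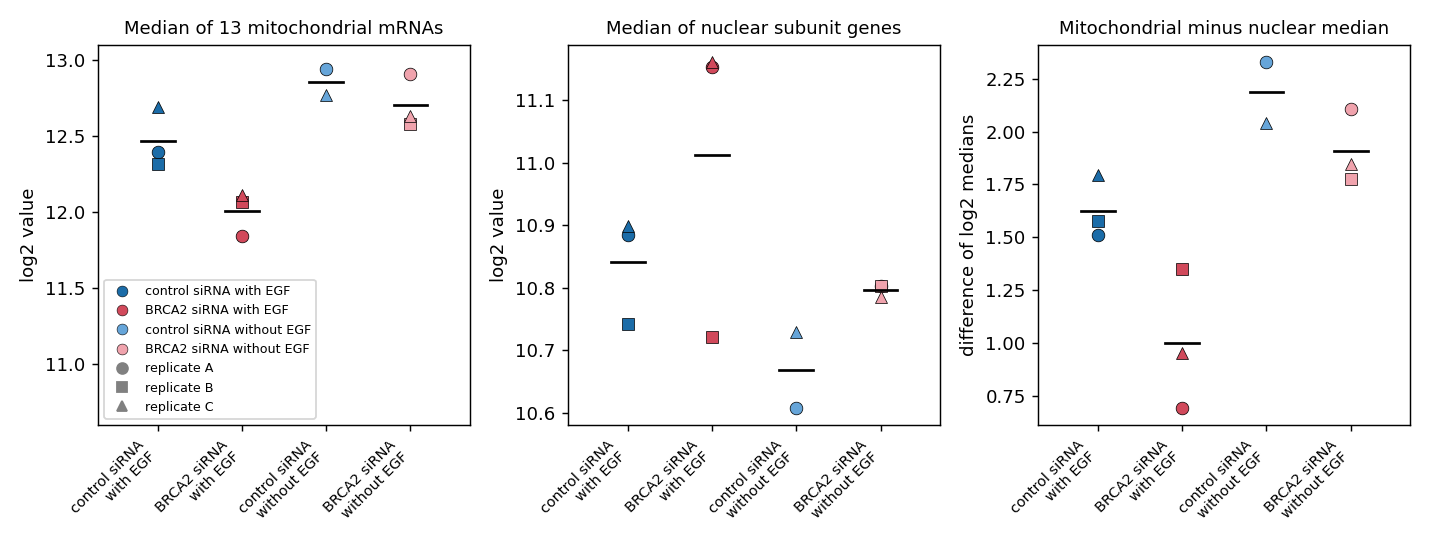
For each of the 11 libraries, the median log2 value of the 13 mitochondrial mRNAs (left), of the 81 nuclear subunit genes of the respiratory chain and ATP synthase (middle), and their difference (right), by group, with replicate letters as symbols and group means as bars. The difference is lowest, 0.69 to 1.35, with BRCA2 siRNA and EGF and highest, 2.04 to 2.33, with control siRNA without EGF.

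The share of the summed linear values taken by the 17 mitochondrial genes was small in every library. It was 0.382% to 0.531% with control siRNA and EGF, 0.288% to 0.376% with BRCA2 siRNA and EGF, 0.638% to 0.641% with control siRNA without EGF and 0.476% to 0.569% with BRCA2 siRNA without EGF, where the BRCA2 siRNA range lay below the control range in each medium, and the ranges of control siRNA with EGF and BRCA2 siRNA without EGF overlapped. Linear values are 2 to the power of the deposited value and are not counts, so these shares are not shares of reads.

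Markers of other cells moved with EGF as well. In control siRNA cells 4 of 5 tested fibroblast markers were higher without EGF, beside 24.7% of all genes. In BRCA2 siRNA cells 1 of 5 was higher, beside 13.4% of all genes. DCN lay between 7.96 and 9.27 over the libraries. The level of a list is the log2 of its summed linear values, in which abundant genes weigh most. For the fibroblast list it was 8.88 to 8.97 with control siRNA and EGF and 8.85 to 9.18 with BRCA2 siRNA and EGF. Without EGF it was 9.90 to 9.98 with control siRNA and 9.10 to 9.78 with BRCA2 siRNA. In this list COL1A2 stayed at or below 1.84 and did not pass the filter. LUM lay between 6.67 and 8.33, PDGFRB between 5.06 and 6.44, THY1 between 5.35 and 6.04 and PDGFRA between 3.73 and 5.75. The basal list stood at 18.52 to 18.69 with EGF and 19.11 to 19.64 without, with 3 of 6 markers higher and 1 lower in control siRNA cells. The luminal list stood at 12.36 to 12.62 with EGF and 12.02 to 12.22 without. Of its 4 tested markers, 2 were higher and 1 lower without EGF in control siRNA cells (median 0.14). In BRCA2 siRNA cells 0 were higher and 2 lower (median -0.13). Of 3 endothelial markers with a row 1 passed the filter (KDR), and of 3 leukocyte markers 1 (CD14). Both were higher without EGF in control siRNA cells, at 2.51 and 2.00. In BRCA2 siRNA cells CD14 was higher at 0.82, and KDR at 0.43 did not pass. The part of these markers in the mitochondrial values was not tested.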

How the data were processed

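Total RNA of 11 libraries (4 groups of 2 to 3) was depleted of rRNA with RiboZero after AllPrep extraction and made into Script-seq v2 libraries, per the labels' protocols. The authors deposited one table of log2 expression values. The submitters' processing notes list hg19, TopHat2 2.0.11, DESeq2 and limma, with no word on what each was used for. The counter, annotation and transform: not given in the sources used here. The values hold no counts, so depth is unknown and no interval that needs it is given. Symbols were matched through RefSeq and GENCODE tables of a later build (37585 of 40460 identifiers, 92.9%), so no coordinates are printed. The labels call the replicates biological. The p-values measure the spread left between these libraries after the centring of A. The main fit has no term for that step, so its p-values can be too small.

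Genes at 10 or more (linear) in at least 2 libraries were fitted in limma 3.58.1 (R 4.3.3): 4 group means, 11 libraries, 7 residual degrees of freedom, a mean-variance trend, two-sided tests, Benjamini-Hochberg adjustment over 17945 genes within a comparison and a threshold of 0.05. Errors after ± are moderated SEs. The fit was tested on simulated data with independent noise in each library and without the centring of A. That run checks the code and not the calls given here. Groups do not overlap where every library of one lies above every library of the other. Lengths and sequences are GENCODE 29 transcripts, aligned with Biopython 1.88. Alternatives were the filter, quantile normalization, centring on the median nuclear gene, no trend, only the groups compared, a replicate block, a term for replicate A, replicates B and C alone, and leaving out each library; the exclusion of the library with high rRNA was singled out after the data were seen.

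All 17 genes and MTATP8P1 are named, with BRCA2, 6 fixed nuclear factors and up to 4 genes with the smallest p per list and comparison, and the nuclear copies past the filter. The members and the 18 gene lists (327 genes, 309 in the table) were chosen with earlier results of these data known.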

Additional observations from a re-analysis of the deposited data

How the results depend on the processing

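No mitochondrial gene and not MTATP8P1 changed sign with a call under the alternatives run. Among the other genes named, LRPPRC on EGF withdrawal with control siRNA reversed to 0.095 after quantile normalization (adjusted p = 0.363). Replicates B and C alone gave 0 of 17 calls in every comparison, where 2074 (withdrawal, control siRNA), 47 (withdrawal, BRCA2 siRNA), 0, 0 and 0 (interaction) of all genes passed. That setting leaves 1 control library without EGF, which is assumed to vary like the other groups. For the BRCA2 siRNA without EGF the count of 3 became 5 after quantile normalization, 8 with only the groups compared (6776 of all genes, not 3687) and 5 with a replicate block.

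Leaving out 1 library at a time gave 2 to 7 calls for withdrawal with control siRNA, 6 to 11 with BRCA2 siRNA and 0 to 6 for the BRCA2 siRNA without EGF. Over all genes the same fits gave 6164 to 10023, 2228 to 6202 and 624 to 4767, and 0 to 1606 for the interaction, where all libraries gave 595 and 375 without the trend. The BRCA2 siRNA with EGF and the interaction had 0 of 17 calls in every setting run.

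The replicate letters shared by the groups did not meet the rule for pairing, that every same-letter pair correlate above 0.1: of 15 such pairs 2 did (range -0.37 to 0.70). Both were between the siRNAs with EGF, B with B (0.70) and C with C (0.70), while A with A stood at -0.12. Of 11 libraries, 4 correlated best with a library of their own letter. The centring between A and the rest makes the A deviations nearly cancel over the groups, so pairs of A libraries tend to correlate negatively. The rule could therefore hardly be met, and missing it does not decide whether the letters mark pairs. The fit with a replicate block gave 5, 11, 0 and 5 calls for the 4 comparisons (in the order of the report) and 0 for the interaction, where 8892, 5459, 0, 4181 and 930 of all genes were called. MTATP8P1 with EGF had an adjusted p of 0.0508 with the block.

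The stricter filter (100 on the linear scale) left out MT-TF and MTATP8P1, and with EGF 0 of all genes were then called between the siRNAs. The median of the genes it kept was -0.16 on withdrawal with control siRNA, beside 0.30 for the 13 mRNAs, whose values a filter does not alter. The lack of counts limits what can be said of low values such as MT-TF and MTATP8P1.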
